A study of Mus musculus with 2 samples.

Results

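The 10 genes described here are Tnf, its receptors Tnfrsf1a and Tnfrsf1b, and 7 genes of the NF-kB pathway that TNF switches on or that hold it back: Tnfaip3, Nfkbia, Nfkbiz, Zc3h12a, Nfkb1, Relb and Birc3. They were taken as a fixed list of names, drawn up with earlier results of these data known. All 10 were found among the 32285 genes of the count matrices. Each was followed in 7 kinds of white blood cell from the tissue behind the mouse retina. In the knockout library the Tnf level stood higher in both kinds of T cell, 1.94-fold in CD8 T cells and 2.28-fold in Cd4 T cells, and lower in nonclassical monocytes, at 0.651 times the flox level. Tnfrsf1a, the gene of the main TNF receptor, stood 2.04-fold higher in Cd4 T cells. The other 8 genes met the 1.5-fold size asked for here in no cell type in the main reading. Under some other settings a few of them did, such as Tnfaip3 in B cells, at 0.630 times the flox level with doublets removed.

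Tumour necrosis factor is a cytokine that T cells and myeloid cells release soon after they are activated. It binds TNFR1, found on most cells, and TNFR2, found mainly on immune and endothelial cells. TNFR1 recruits ubiquitin ligases and kinases that destroy the inhibitor IkB-alpha and free the transcription factor NF-kB to enter the nucleus. NF-kB then switches on inflammatory genes, Tnf among them, together with genes whose products end the signal, such as IkB-alpha and A20. In the eye, TNF is known as a mediator of intraocular inflammation.

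The study made 10x Genomics 3' libraries from single CD45+ cells (CD45 is a surface protein of white blood cells) sorted live from retinal pigment epithelium and choroid after enzymatic digestion. Both groups received an intraperitoneal dose of 20 mg/kg sodium iodate (NaIO3), an oxidant that damages the retinal pigment epithelium. The flox library has the genotype label IL-17ra fl (floxed alleles of the IL-17 receptor gene Il17ra), and the knockout library the label IL-17RA CKO (a conditional knockout). With 1 library per group, no difference below has a replicate check. The labels name a v2 kit for both libraries, but the flox matrix holds more barcodes than such a kit's list, so its kit is uncertain, and the file headers give different counting software versions; a difference in kit or software cannot be told apart from genotype. Which Cre driver was used, in which cells and exons the gene was deleted, how many animals each library pools, their age and the time after injection are not given in the sources at hand.

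Both libraries were read alike: a cell is a barcode with at least 1000 UMIs (unique molecular identifiers, each marking 1 captured RNA molecule) and under 10% mitochondrial UMIs. This left 3420 flox cells (median 8741 UMIs) and 3982 knockout cells (median 7714 UMIs), which share 3 barcodes. Il17ra itself stood at 132 CPM (UMIs of the gene scaled to 1000000 UMIs in all) in flox against 123 CPM in knockout cells, and its knockout over flox ratio lay between 0.817 and 1.18 in the 7 cell types. Since the deleted exons are not given, these 3' counts do not check the labels. Both libraries mix sexes, in different proportions. Cells with an Xist UMI and no Y-linked UMI (called female here) were 65.7% of flox and 39.3% of knockout cells, and cells with a Y-linked UMI and no Xist UMI (called male) were 15.7% and 34.6%. Values within each sex are therefore given beside each called difference of the 10 genes.

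Cells were sorted into types by gates on raw UMIs. B cells had at least 2 UMIs of Cd79a, CD8 T cells and Cd4 T cells at least 2 of Cd3d and Cd3e with Cd8a or Cd8b1 but no Cd4, or the reverse, and NK cells an Ncr1 UMI and none of Cd3d and Cd3e. Classical monocytes had at least 3 UMIs of F13a1 and Chil3, nonclassical monocytes 2 of Cd300e and Adgre4, and dendritic cells 2 of Cd209a and Clec10a. In flox and knockout the gates held 632 and 1007 B cells, 650 and 1032 CD8 T cells, 336 and 274 Cd4 T cells, 211 and 276 NK cells, 416 and 312 classical monocytes, 545 and 523 nonclassical monocytes, and 203 and 150 dendritic cells. All markers of a gate's own list were detected in it in both libraries, 5 of 5 for the B, NK, both monocyte and dendritic lists. This cannot show that the gates hold the named types, since any UMI in the gate counts and the lists include gating genes. Lists of other types were also detected in full in both libraries. The T, NK and both monocyte lists were 5 of 5 in the B gate, and the B, NK and dendritic lists in the CD8 T gate. A cell could meet several gates, as 261 flox and 244 knockout cells did, most of them (168 and 130) monocytes that met both monocyte gates. The classical monocyte and dendritic gates shared 59 flox and 50 knockout cells. The gates are rough types drawn from a few genes, not clusters.

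A level below is the CPM of the summed UMIs of a gate, and its 95% interval, in parentheses, is an exact Poisson interval. The interval of a knockout over flox ratio is an exact conditional binomial one, and shares of cells have exact Clopper-Pearson intervals. All of these cover counting error only. A difference is called where both libraries together hold at least 20 UMIs of the gene, the ratio is at least 1.5-fold in either direction and its interval excludes 1. Tnf and Nfkbia, the ligand gene and the inhibitor gene that NF-kB induces, show the DNA on which this feedback is written. Their 250 bases before the start site, from RefSeq on build GRCm38.p6, follow, 5' to 3' on the gene's own strand, with matches to the NF-kB motif GGNNNTTCC on either strand, or to the longer kB consensus, in capitals. The region of Tnf is chr17:35202008-35202257 and that of Nfkbia chr12:55492648-55492897, both on the minus strand.
Tnf: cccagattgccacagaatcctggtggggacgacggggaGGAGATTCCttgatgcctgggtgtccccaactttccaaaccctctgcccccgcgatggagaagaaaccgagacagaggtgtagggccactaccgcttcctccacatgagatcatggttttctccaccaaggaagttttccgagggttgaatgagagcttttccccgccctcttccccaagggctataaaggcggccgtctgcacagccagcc
Nfkbia: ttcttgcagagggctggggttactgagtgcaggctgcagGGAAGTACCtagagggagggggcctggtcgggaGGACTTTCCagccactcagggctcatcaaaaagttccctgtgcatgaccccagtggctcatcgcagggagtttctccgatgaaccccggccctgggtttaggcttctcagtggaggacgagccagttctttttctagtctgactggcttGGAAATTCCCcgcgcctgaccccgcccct
The Tnf window held 1 match, at -212 to -204 from the start site. The Nfkbia window held 3, at -211 to -203 (on the opposite strand), -178 to -170 and -29 to -21. The last reads the same on both strands and overlaps the match to the kB consensus at -29 to -20. Of 32851 promoter windows of this length, 15.7% held GGNNNTTCC and 7.25% the kB consensus, so a match is common and marks no site of binding. Promoter entries were found for 7 of the 10 genes, and 4 of these had a match.

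Across the gates, the members' calls were few. Of 70 pairs of gene and gate, 3 were higher (4.29%) and 1 was lower (1.43%) in knockout, a share near that of all genes for higher calls and below it for lower ones. In CD8 T cells 1 of 10 members was higher and none lower, against 4.95% higher and 3.54% lower of 12085 genes with enough UMIs. In Cd4 T cells 2 of 10 were higher and none lower, against 3.99% and 5.67% of 10224 genes. In nonclassical monocytes none was higher and 1 was lower, against 2.60% and 3.79% of 11250 genes. No member was called in B cells (background 2.36% higher and 5.30% lower), NK cells (3.53% and 3.15%), classical monocytes (4.09% and 3.56%) or dendritic cells (4.41% and 3.49%). With doublets removed, Tnf (0.597), Tnfrsf1b (0.658) and Tnfaip3 (0.630) were called lower in B cells. The median log2 ratio of the 10 members lay between -0.19 in Cd4 T cells and 0.15 in CD8 T cells, where that of all genes was 0.01 and 0.04. The calls of the main reading belong to Tnf and, in 1 gate, to Tnfrsf1a.

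**Figure D1:**
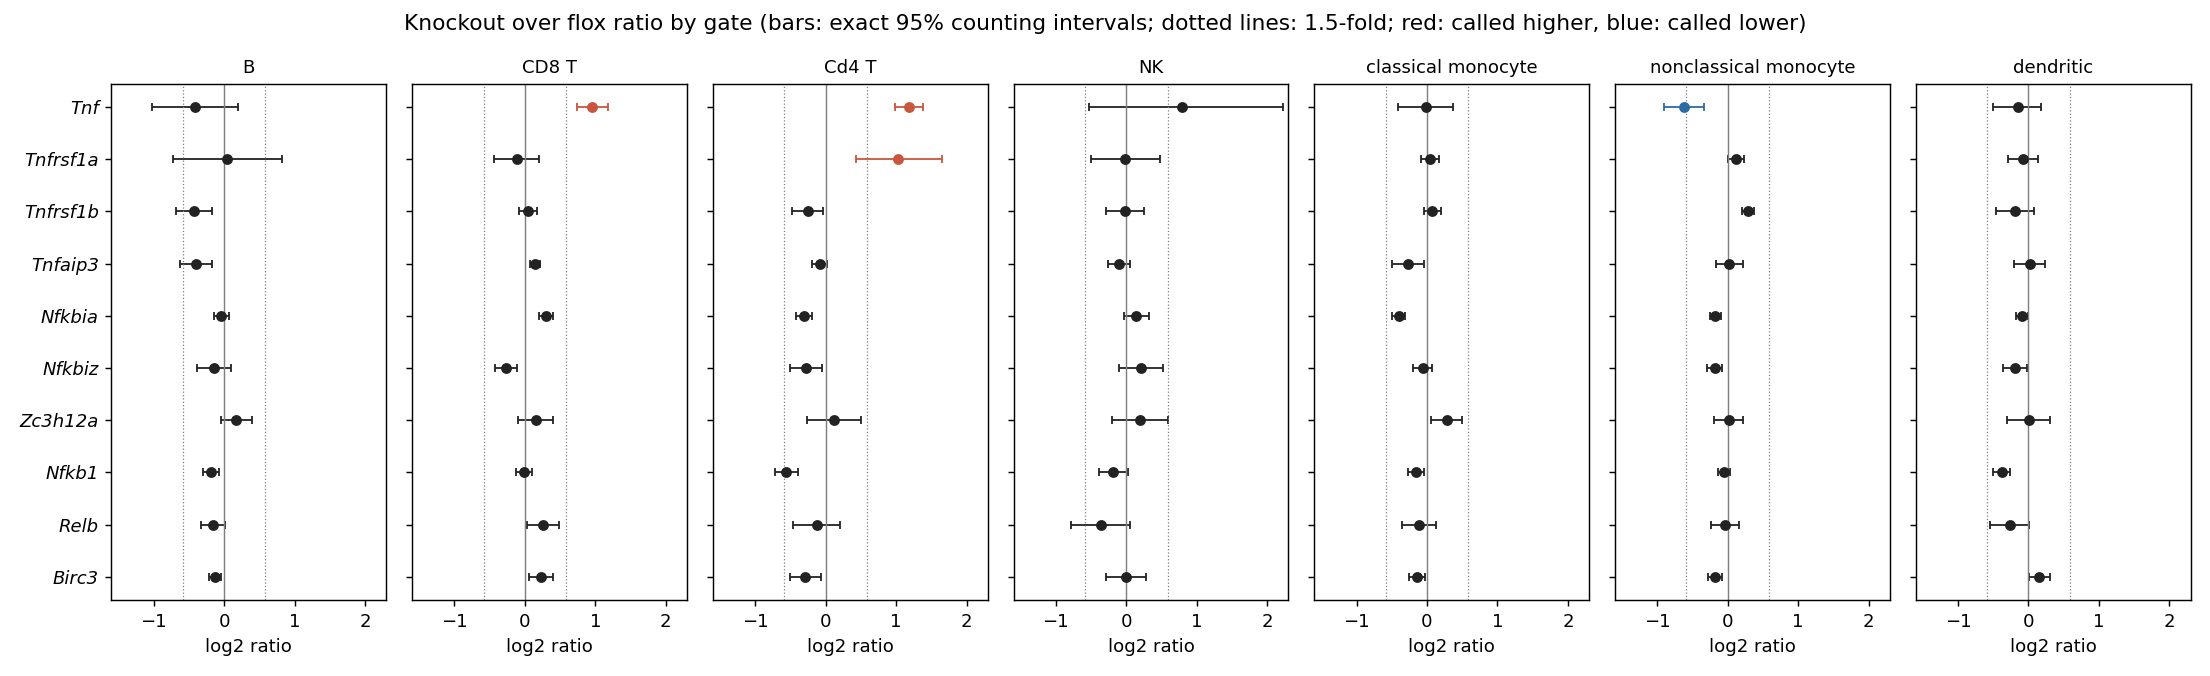
Knockout over flox ratio (log2, x axis) of each of the 10 genes in the 7 gates, with exact 95% counting intervals; dotted lines mark 1.5-fold, red points were called higher and blue points lower. Tnf lies to the right in both T cell gates and to the left in nonclassical monocytes, and the 8 genes below the rows of Tnf and Tnfrsf1a lie inside the dotted lines in every gate.

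The ligand gene Tnf (ENSMUSG00000024401, chromosome 17, 35199381 to 35202007, minus strand, mm10) encodes a membrane protein that a protease cuts to release the cytokine. Cd4 T cells held the highest level in both libraries, 115 CPM (103 to 127) in flox against 261 CPM (240 to 282) in knockout, from 334 and 591 UMIs. The ratio of 2.28 (1.99 to 2.61) was called higher. CD8 T cells held 35.1 CPM (30.7 to 40.0) and 68.1 CPM (62.9 to 73.6), a ratio of 1.94 (1.67 to 2.27) that was also called. Both T cell gates thus stood higher in knockout, and the intervals of the groups did not overlap.

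In nonclassical monocytes, the blood-patrolling kind, Tnf stood at 40.9 CPM (36.2 to 45.9) in flox against 26.6 CPM (22.7 to 31.0) in knockout, with a ratio of 0.651 (0.533 to 0.791), which was called lower. In classical monocytes, the inflammatory kind, the values were 20.1 and 19.9 CPM, a ratio of 0.987 (0.751 to 1.29). Dendritic cells, which present antigen to T cells, held 50 and 44.9 CPM, a ratio of 0.898 (0.709 to 1.13). No myeloid gate was called higher, but with cells of several gates left out the classical monocyte ratio was 1.64, which was called higher. B cells (9.96 and 7.44 CPM) and NK cells (4.37 and 7.52 CPM, from 8 and 16 UMIs) held the lowest levels in both libraries, and neither ratio's interval excluded 1. In knockout these 2 gates did not differ from each other beyond counting error.

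Over all kept cells Tnf stood at 47.0 CPM in flox against 62.8 CPM in knockout, with a ratio of 1.34 (1.25 to 1.42) below the size asked for, in a comparison where 3.70% of all genes were called higher and 5.60% lower. The CD8 T gate held 13.9% of all Tnf UMIs in flox and 28.4% in knockout, and the Cd4 T gate 20.2% and 26.3%. Their shares of all UMIs were 18.6% and 26.2% for CD8 T cells, and 8.31% and 6.33% for Cd4 T cells. Nonclassical monocytes held 16.9% and 7.33% of the Tnf UMIs. Cells in no gate, 704 in flox and 668 in knockout, held 34.7% and 28.8% of them, at 80.9 and 119.5 CPM, so a large part of the Tnf message lay outside the named gates.

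**Figure D2:**
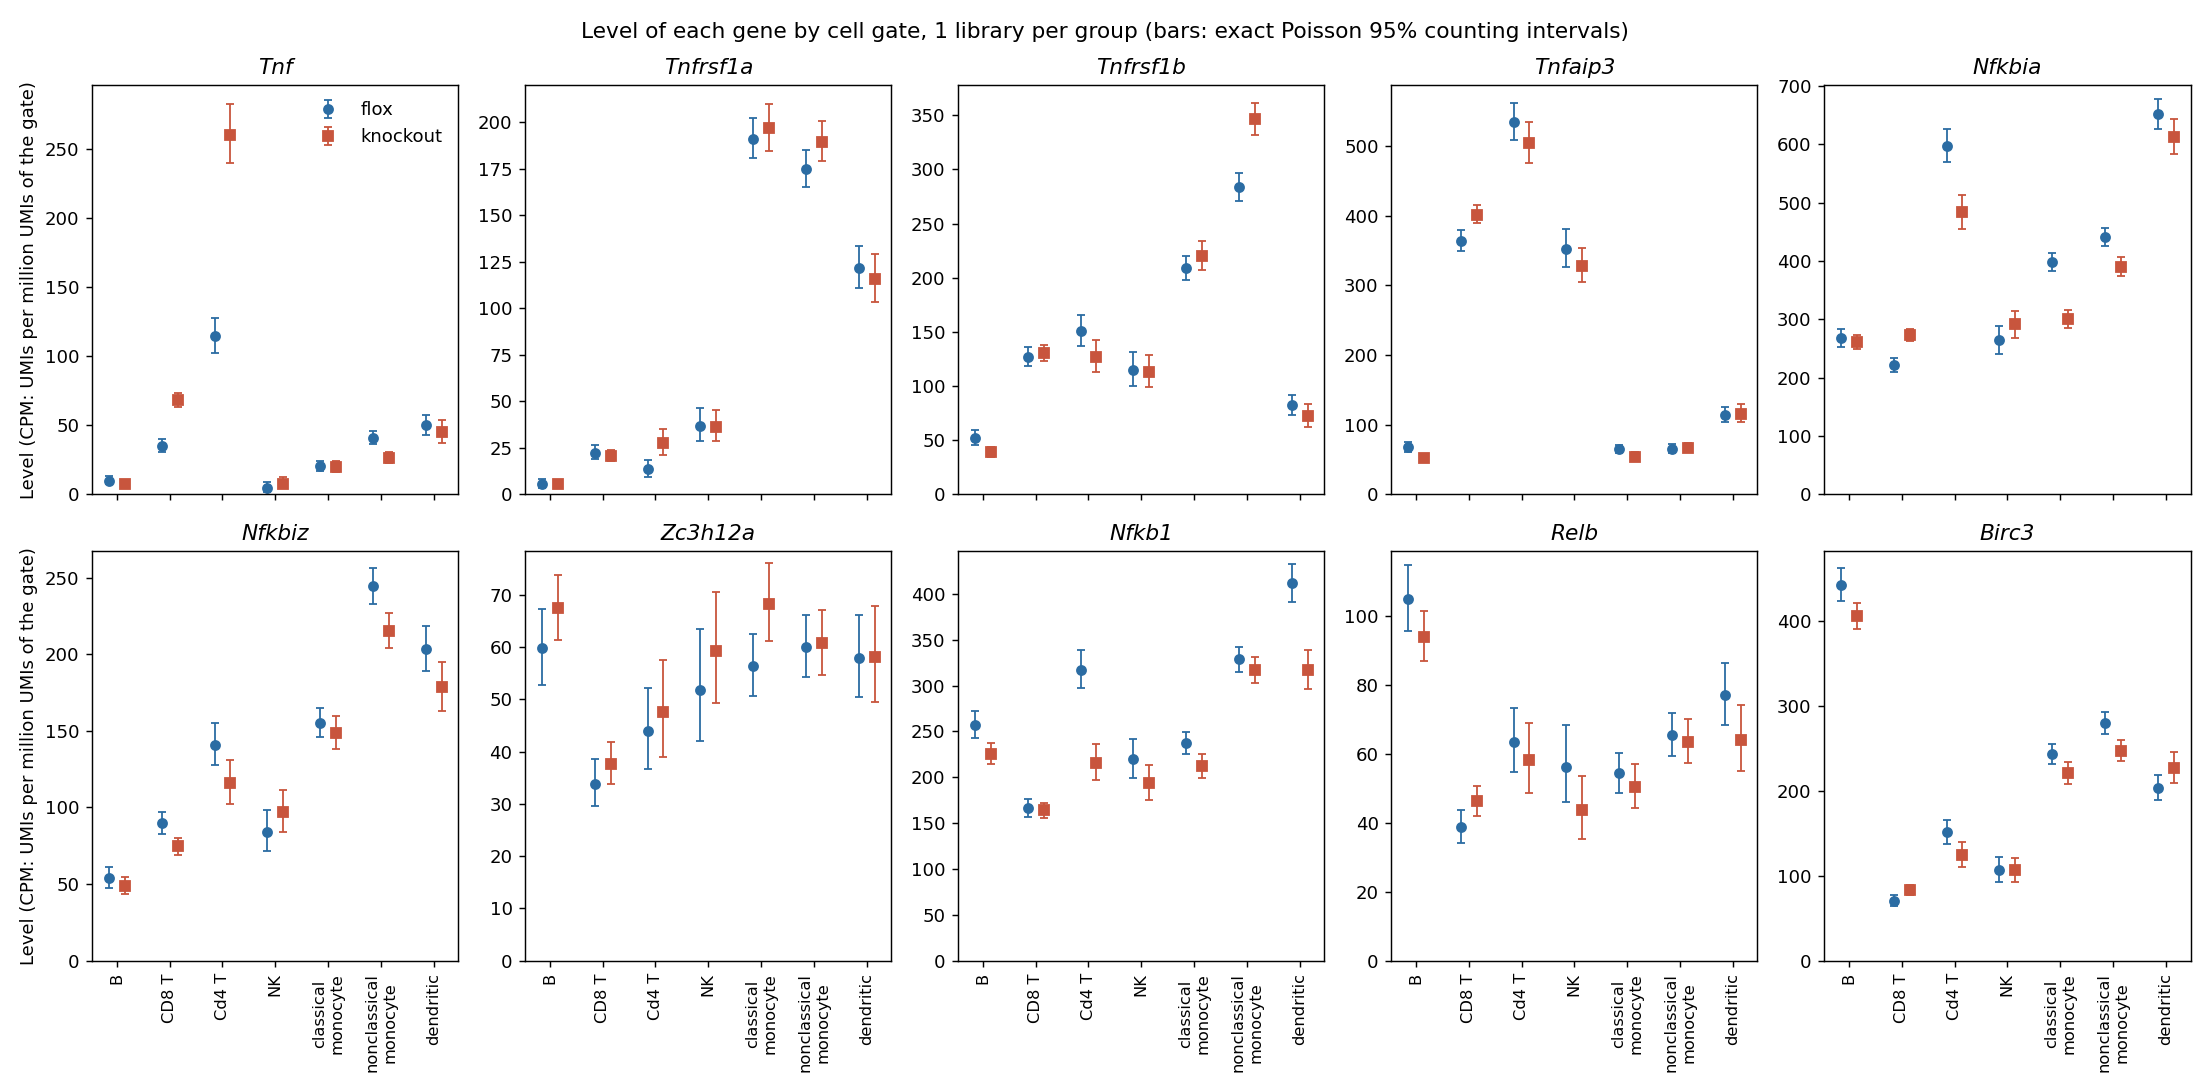
Level of each of the 10 genes (y axis, CPM, linear from 0) by gate (x axis) in flox (blue circles) and knockout (red squares), 1 library each, with exact Poisson 95% counting intervals. Tnf reaches 261 CPM in knockout Cd4 T cells against 115 CPM in flox; the y axes differ between genes.

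Tnf message was unevenly spread over cells. In Cd4 T cells a Tnf UMI was held by 33.6% of flox cells (28.6 to 39.0) and by 36.1% of knockout cells (30.4 to 42.1), at median depths of 8314 and 7483 UMIs, so the share of cells hardly differed. The difference lay in cells with many Tnf UMIs. Cells with at least 10 were 5 of 336 in flox (1.49%) and 14 of 274 in knockout (5.11%), and they held 28.1% and 60.2% of the gate's Tnf UMIs. Without the 5 highest cells of each library the ratio was 2.15. This leaves out all 5 flox cells with at least 10 Tnf UMIs but only part of the 14 in knockout. It therefore cannot show whether the ratio rests on such cells, and a ratio without all of them was not computed. With each cell thinned to 1000 UMIs, the share with a Tnf UMI was 9.82% and 10.6%, and the ratio of 56 to 62 thinned UMIs, 1.36, was no longer called.

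In CD8 T cells the share of cells with a Tnf UMI also differed, at 18.6% (15.7 to 21.8) and 25.1% (22.5 to 27.9), at median depths of 9287 and 8284 UMIs. Thinned to 1000 UMIs, it was 4% and 6.69%. Cells with at least 5 Tnf UMIs were 6 in flox and 26 in knockout. In nonclassical monocytes the share was 20.6% in flox and 16.1% in knockout (3.67% and 2.49% thinned). NK cells give the lowest flox share, 3.32% of cells at a median of 7676 UMIs, and B cells the lowest knockout share, 3.77% at 6468 UMIs. These gates are named because their shares were lowest, so the other gates stand above them by that choice. Their shares do not measure free RNA or false detection. In the flox barcodes of at most 100 UMIs, which hold mostly free RNA, Tnf made up 61.6 CPM, against 47.0 CPM in kept flox cells.

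**Figure D3:**
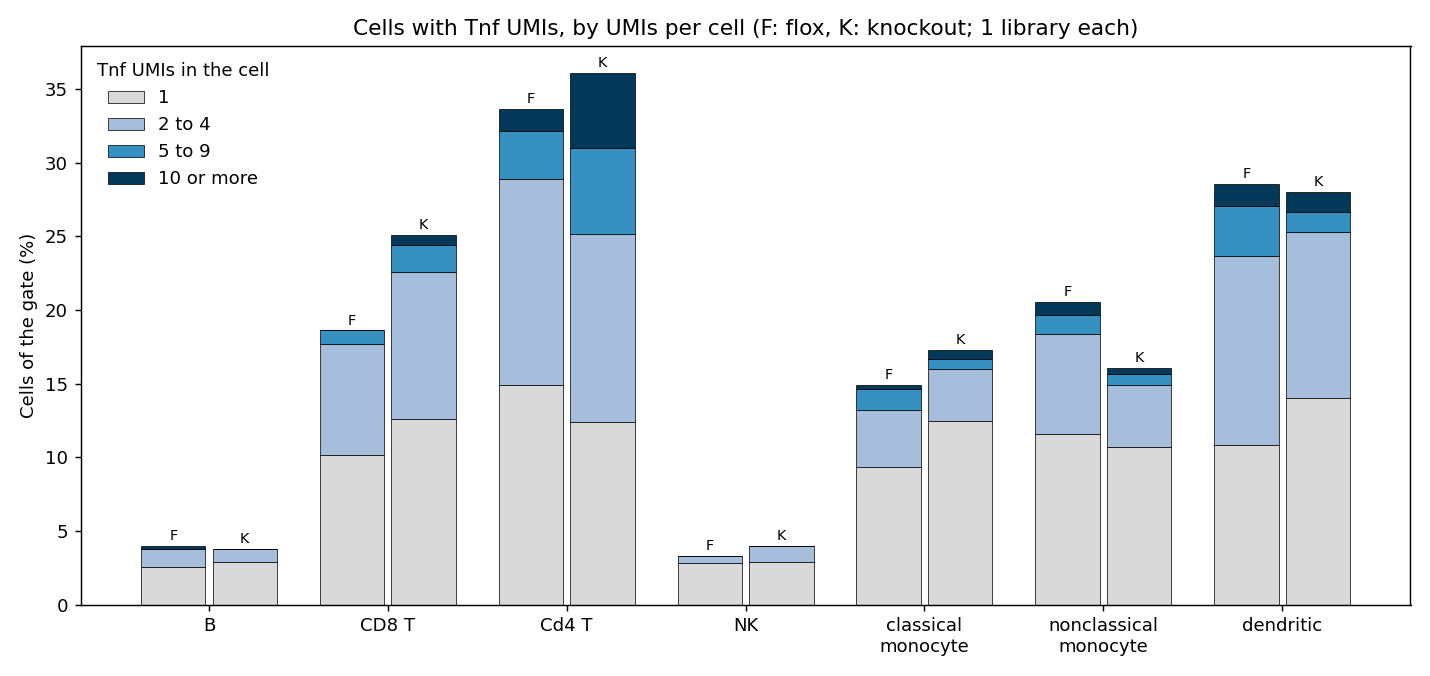
Share of the cells of each gate (y axis, %) with 1, 2 to 4, 5 to 9 or 10 and more Tnf UMIs (stacked colours), for flox (F) and knockout (K), 1 library each. The Cd4 T bars reach 33.6% and 36.1%, and their darkest part, cells with at least 10 UMIs, stands at 1.49% and 5.11%.

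Within sexes, the T cell differences were uneven. In female CD8 T cells Tnf stood at 24.9 CPM in flox against 51.4 CPM in knockout, with a ratio of 2.06 (1.62 to 2.65). In male CD8 T cells the values were 73.1 and 79.9 CPM, a ratio of 1.09 (0.855 to 1.41), from 94 and 442 cells. The CD8 T gate was 14.5% male in flox and 42.8% male in knockout, so the sex mix moved with the level; its part in the result was not tested. In Cd4 T cells the female ratio was 1.46 (1.17 to 1.81; 129 and 188 CPM) and the male ratio 4.36 (3.20 to 6.08; 94.6 and 413 CPM), so the direction was the same in both sexes and the call held in male cells. In nonclassical monocytes the female ratio was 0.662 (0.499 to 0.870) and the male ratio 1.59 (0.943 to 2.82), from 18 and 79 UMIs. The call thus held in female cells, and the difference between the sexes was not tested.

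The T cell gates were also split by single genes that mark T cell states. Cxcr6, a chemokine receptor gene of tissue-resident memory T cells, was chosen for this after its values had been seen, so that its values are a description. In Cd4 T cells with a Cxcr6 UMI (89 flox and 115 knockout cells) Tnf stood at 147 and 471 CPM, a ratio of 3.21 (2.62 to 3.96). In those without one it stood at 102 and 98.3 CPM, a ratio of 0.964 (0.768 to 1.21). Cells with Cxcr6 were 26.5% of the gate in flox and 42.0% in knockout, and they held 35.9% and 78.7% of its Tnf UMIs. Inside this gate the Tnf difference therefore lay in the cells with Cxcr6.

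CD8 T cells gave a similar split. With a Cxcr6 UMI, Tnf stood at 39.1 and 91.2 CPM, a ratio of 2.33 (1.93 to 2.82), and without one at 30 and 33.5 CPM, a ratio of 1.12 (0.843 to 1.49). Pdcd1 encodes the inhibitory receptor PD-1 of antigen-experienced T cells. CD8 T cells with a Pdcd1 UMI had a Tnf ratio of 2.36 (1.89 to 2.98), and those without one of 1.60 (1.30 to 1.99). Klrg1, a receptor gene of short-lived effector cells, did not separate the ratio: it was 2.01 with and 1.89 without a Klrg1 UMI, although such cells were 7.08% of the gate in flox and 18.7% in knockout. CD8 T cells with neither Klrg1 nor Pdcd1 gave 1.30, which was not called.

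Among Cd4 T cells, those with a Foxp3 UMI (the master gene of regulatory T cells) were only 26 and 13, with Tnf at 108 and 131 CPM and a ratio of 1.22 (0.616 to 2.37). Ikzf2, which encodes Helios, was found in 53.0% of flox and 24.5% of knockout cells of the gate. With an Ikzf2 UMI the Tnf ratio was 1.97 (1.60 to 2.43), and without one it was 2.79 (2.28 to 3.43). Both sides of this split thus stood higher in knockout.

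**Figure D4:**
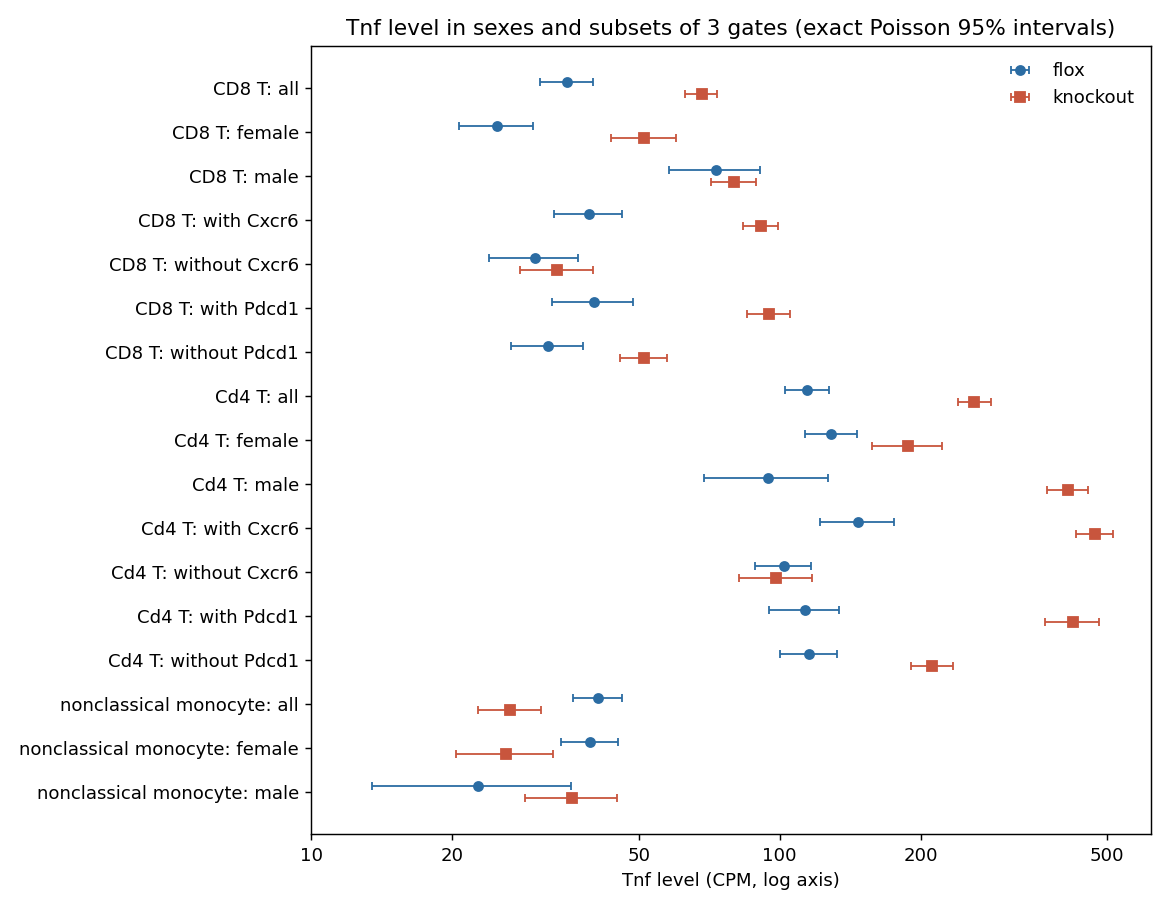
Tnf level (x axis, CPM, log axis) in flox (blue circles) and knockout (red squares), with exact Poisson 95% counting intervals, for the whole CD8 T, Cd4 T and nonclassical monocyte gates and for sexes and subsets of them. The pair lies far apart in Cd4 T cells with Cxcr6 (147 and 471 CPM) and overlaps in those without (102 and 98.3 CPM).

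Markers of other cells moved with some of these values. In the Cd4 T gate Cd8a and Cd8b1 are at 0 by the gate, and 5 microglia and macrophage markers summed to 1.37 CPM in flox against 2.20 CPM in knockout, with Mertk and Tmem119 at 0 in both. Classical monocyte markers summed there to 234 and 142 CPM (1 of 5 lower, Ly6c2 at 153 and 58.2 CPM, a gene that T cells also express), nonclassical monocyte markers to 181 and 213 CPM (1 of 5 higher, Ace), and the photoreceptor gene Sag was lower, at 11.7 and 4.41 CPM, with the pigment epithelium gene Rpe65 at 0 in both. In the CD8 T gate classical monocyte markers summed to 714 and 521 CPM (3 of 5 lower; Ly6c2, at 567 and 431 CPM, was not among them), 5 B cell markers to 84.6 and 157 CPM (3 of 5 higher) and the microglia and macrophage markers to 0.767 and 9.79 CPM (3 of 5 higher, Mertk at 0 in both). In the nonclassical monocyte gate all 5 T cell markers were higher in knockout (35.4 and 85.7 CPM in sum), the microglia and macrophage markers summed to 123 and 77.6 CPM (2 of 5 lower), and the classical monocyte markers to 1484 and 1072 CPM (1 of 5 lower). The part of these cells in the Tnf values was not tested.

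Nonclassical monocytes were also read without the cells that met the classical gate. Cells of the nonclassical gate that did not meet the classical one had Tnf at 54.4 and 33.4 CPM, a ratio of 0.615 (0.493 to 0.764), from 377 and 393 cells. Cells that met both gates had 20.8 and 13.6 CPM, a ratio of 0.653 (0.403 to 1.04), and cells of the classical gate alone 19.7 and 24.7 CPM, a ratio of 1.26 (0.890 to 1.77). The lower level was thus as large outside the overlap of the monocyte gates. With the cells of any several gates left out, the ratio was 0.676, just short of the size asked for, and by the mean CPM of cells it was 0.807.

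The receptor genes came next. Tnfrsf1a (ENSMUSG00000030341, chromosome 6, 125349362 to 125362484, plus strand) encodes TNFR1, the receptor with a death domain. It was a myeloid message: classical monocytes held 191 CPM (180 to 202) in flox against 197 CPM (185 to 210) in knockout, nonclassical monocytes 175 and 190 CPM, and dendritic cells 122 and 116 CPM. NK cells held 36.6 and 36.2 CPM, CD8 T cells 22.4 and 20.6 CPM, and B cells 5.53 and 5.69 CPM. In flox all neighbours in the order of gates differed beyond counting error. In knockout the monocyte gates did not differ from each other in this way, nor did Cd4 T cells from NK or CD8 T cells.

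Cd4 T cells were the exception, at 13.4 CPM (9.51 to 18.3) in flox against 27.3 CPM (21.0 to 35.0) in knockout, with a ratio of 2.04 (1.35 to 3.13) from 39 and 62 UMIs that was called higher. The female ratio was 2.96 (1.58 to 5.58) and the male ratio 2.0 (0.853 to 5.42), from 7 and 28 UMIs. With each cell thinned to 1000 UMIs only 9 flox and 5 knockout UMIs remained, too few to show a direction, and the ratio read 0.681. Without cells holding Foxp3 or Ikzf2 it was 1.48, and without those holding Cxcr6 1.70 (0.974 to 2.96), so neither was called. The counts behind this call are small, and the myeloid gates held several times the level in either library.

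Tnfrsf1b (ENSMUSG00000028599, chromosome 4, 145213463 to 145246870, minus strand) encodes TNFR2, which lacks a death domain and answers membrane-bound TNF best. Its highest level was in nonclassical monocytes, at 283 CPM (271 to 296) in flox against 347 CPM (332 to 362) in knockout, with a ratio of 1.22 (1.15 to 1.30) under the size asked for. Classical monocytes held 209 and 220 CPM, and CD8 T cells 127 and 130 CPM. Cd4 T cells held 151 and 127 CPM, a ratio of 0.840 (0.721 to 0.976). B cells were lowest, at 52.2 and 38.8 CPM, with a ratio of 0.743 (0.621 to 0.889). Nonclassical monocytes, where Tnf stood lower in knockout, thus held more Tnfrsf1b message there.

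The feedback inhibitors differed little. Tnfaip3 (ENSMUSG00000019850, chromosome 10, 19000910 to 19015657, minus strand) encodes A20, which edits ubiquitin chains and shuts down signalling from TNFR1. It was a message of T and NK cells here: Cd4 T cells held 535 CPM (509 to 562) in flox against 504 CPM (476 to 534) in knockout, CD8 T cells 364 and 402 CPM, and NK cells 352 and 328 CPM. Dendritic cells held 114 and 116 CPM, and both monocyte gates and B cells between 51.4 and 67.7 CPM. The ratios were 0.943 (0.873 to 1.02) in Cd4 T cells and 1.10 (1.05 to 1.16) in CD8 T cells. B cells had the lowest ratio, 0.759 (0.649 to 0.887), from 306 and 352 UMIs.

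The B cell gate calls for a further value, since T cell markers in it summed to 100.2 CPM in flox against 157 CPM in knockout (4 of 5 higher). Cells of the gate with at least 2 UMIs of Cd3d and Cd3e were 11 in flox and 37 in knockout. Without them, the Tnfaip3 ratio was 0.610 (0.509 to 0.732), the Tnf ratio 0.574 (0.350 to 0.937) and the Tnfrsf1b ratio 0.719. The Tnf ratio rests on only 39 and 33 UMIs. In the whole gate, 1 flox cell with at least 10 Tnf UMIs held 24.4% of the flox Tnf UMIs, and no knockout cell had as many. With cells of any several gates left out, the 3 ratios were 0.590, 0.496 and 0.665 and all were called lower. The 3 ratios thus lay further below 1 once cells with T cell message were left out.

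Nfkbia (ENSMUSG00000021025, chromosome 12, 55489410 to 55492647, minus strand) encodes IkB-alpha, the inhibitor that NF-kB resynthesises after each pulse, from the promoter printed above. Dendritic cells held 652 CPM (626 to 678) in flox against 613 CPM (583 to 643) in knockout. Cd4 T cells held 598 and 483 CPM, a ratio of 0.808 (0.749 to 0.872), and CD8 T cells 221 and 273 CPM, a ratio of 1.23 (1.15 to 1.31). Nfkbia thus stood lower in the T cell gate with the larger Tnf ratio and higher in the other. Classical monocytes held 398 and 301 CPM, the lowest ratio, 0.756 (0.709 to 0.807), and nonclassical monocytes 441 and 390 CPM. In 3 of 7 gates the interval lay below 1 and in 1 above it, with no call.

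Nfkbiz (ENSMUSG00000035356, chromosome 16, 55811375 to 55838899, minus strand) encodes IkB-zeta, a nuclear cofactor of NF-kB that IL-17 signalling is known to induce in epithelial cells. It was highest in nonclassical monocytes, at 245 and 215 CPM (ratio 0.880, 0.818 to 0.946), then in dendritic cells, at 203 and 179 CPM, and lowest in B cells, at 54.0 and 48.7 CPM. The ratio lay below 1 in 6 of 7 gates, and its interval in 4, with the lowest value of 0.823 (0.702 to 0.963) in Cd4 T cells. Zc3h12a (ENSMUSG00000042677, chromosome 4, 125118423 to 125127840, minus strand) encodes Regnase-1, a ribonuclease that degrades inflammatory messages. Its levels spread least of the 10 genes over the gates, by 1.77 times in flox and 1.81 times in knockout, from 33.9 CPM in CD8 T cells to 60.0 CPM in nonclassical monocytes in flox, and from 37.7 to 68.3 CPM in knockout. In CD8 T cells, which were lowest in both libraries, the ratio was 1.11 (0.937 to 1.32), and in classical monocytes 1.21 (1.04 to 1.41). With each cell thinned to 1000 UMIs these ratios were 1.82 and 1.93, and both were called higher. In male classical monocytes the ratio was 1.54, also called higher, and in female ones 1.17, not called.

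Birc3 (ENSMUSG00000032000, chromosome 9, 7848699 to 7873186, minus strand) encodes cIAP2, a ubiquitin ligase of the TNFR1 complex that NF-kB itself induces. B cells held by far the most, 443 CPM (423 to 462) in flox against 406 CPM (391 to 421) in knockout. Nonclassical monocytes followed with 280 and 247 CPM, and CD8 T cells were lowest, with 70.7 and 82.8 CPM. The ratio was lowest in Cd4 T cells (0.819, 0.703 to 0.954) and highest in CD8 T cells (1.17, 1.04 to 1.32). The T cell gates thus went apart here as they did for Nfkbia.

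Of the subunit genes, Nfkb1 stood slightly lower in most gates. Nfkb1 (ENSMUSG00000028163, chromosome 3, 135584655 to 135691547, minus strand) encodes p105, which is cut to the p50 subunit and as a whole acts as an inhibitor. Its ratio was below 1 in 7 of 7 gates and its interval in 4. In Cd4 T cells its level was 317 CPM (297 to 339) in flox against 216 CPM (197 to 236) in knockout. The ratio of 0.680 (0.609 to 0.760) fell just short of the size asked for and was not called. In dendritic cells the levels were 412 and 317 CPM, a ratio of 0.769 (0.707 to 0.837). In CD8 T cells it was nearly level, at 166 and 164 CPM. Within female Cd4 T cells the ratio was 0.584, which was called lower.

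Relb (ENSMUSG00000002983, chromosome 7, 19606217 to 19629438, minus strand) encodes the subunit of the alternative pathway that BAFF and lymphotoxin receptors switch on. It was highest in B cells, at 105 and 94.0 CPM, followed by dendritic cells, at 77.1 and 64.1 CPM. CD8 T cells held 38.6 CPM in flox against 46.2 CPM in knockout, with a ratio of 1.20 (1.02 to 1.40). In 6 of 7 gates the ratio lay below 1, but its interval lay below 1 in none. Across the 14 profiles of 7 gates in 2 libraries, Relb and Birc3 ran together (Pearson r = 0.84 of log2 levels), and Tnfaip3 ran against Birc3 (r = -0.86). These correlations describe the gates, which share libraries and, in part, cells.

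Inside the gates, cells with a Tnf UMI were set against cells without one in the 5 gates with at least 30 Tnf-positive cells, which gives 10 pairs of gate and library. Nfkbia and Tnfaip3 were higher in Tnf-positive cells, with intervals above 1, in 7 of 10 pairs each, Nfkbiz in 6 and Nfkb1 in 5. Zc3h12a was higher in 3 pairs, Relb and Tnfrsf1b in 2 each, and Tnfrsf1a and Birc3 in 1 each. Of all genes with at least 20 UMIs in a pair, the interval lay above 1 in 8.14% and below 1 in 6.87% of cases; it narrows as a gene's UMIs grow. Intervals below 1 were found for Nfkb1 in flox Cd4 T cells (0.801), Tnfrsf1b in knockout dendritic cells (0.695) and Birc3 in knockout nonclassical monocytes (0.816). The higher level of the inhibitor genes in Tnf-positive cells was thus found in both libraries, though not in every gate. Tnf-positive cells were slightly deeper in 9 of 10 pairs, by the most in flox classical monocytes, with a median of 16753 UMIs against 14889.

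Dendritic cells gave the largest ratios. Tnfaip3 stood at 245 CPM in Tnf-positive and 59.1 CPM in Tnf-negative flox cells, a ratio of 4.14 (3.39 to 5.07), and at 179 and 90 CPM in knockout, a ratio of 1.99 (1.58 to 2.50). Nfkbia had ratios of 3.22 (2.97 to 3.49) and 2.72 (2.46 to 2.99), and Nfkbiz of 2.17 (1.88 to 2.51) and 2.54 (2.12 to 3.05). The inhibitors thus ran with Tnf in the dendritic gate of both libraries. This gate includes 59 flox and 50 knockout cells that also met the classical monocyte gate, and the ratios were not read without them. In classical monocytes the ratios of Tnfaip3 and Nfkbia were 1.93 (1.54 to 2.40) and 1.51 (1.38 to 1.66) in flox and 1.0 (0.714 to 1.38) and 0.981 (0.854 to 1.12) in knockout; the difference between the libraries was not tested.

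In Cd4 T cells, where Tnf itself differed most, Nfkbia was not higher in Tnf-positive cells in either library (1.01 and 0.961), and Tnfaip3 only in knockout, at 1.24 (1.10 to 1.40). Egr1, an immediate early gene that also answers tissue digestion, was higher in Tnf-positive cells in 10 of 10 pairs, by 1.37 to 4.55 times, and so was Fos. The part of cell handling in these ratios was not tested. Ccl4, a chemokine gene of activated T cells, was split between libraries in Cd4 T cells. In flox it stood at 6.72 CPM in Tnf-positive and 25.1 CPM in Tnf-negative cells, and in knockout at 189.9 CPM and 21.8 CPM.

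**Figure D5:**
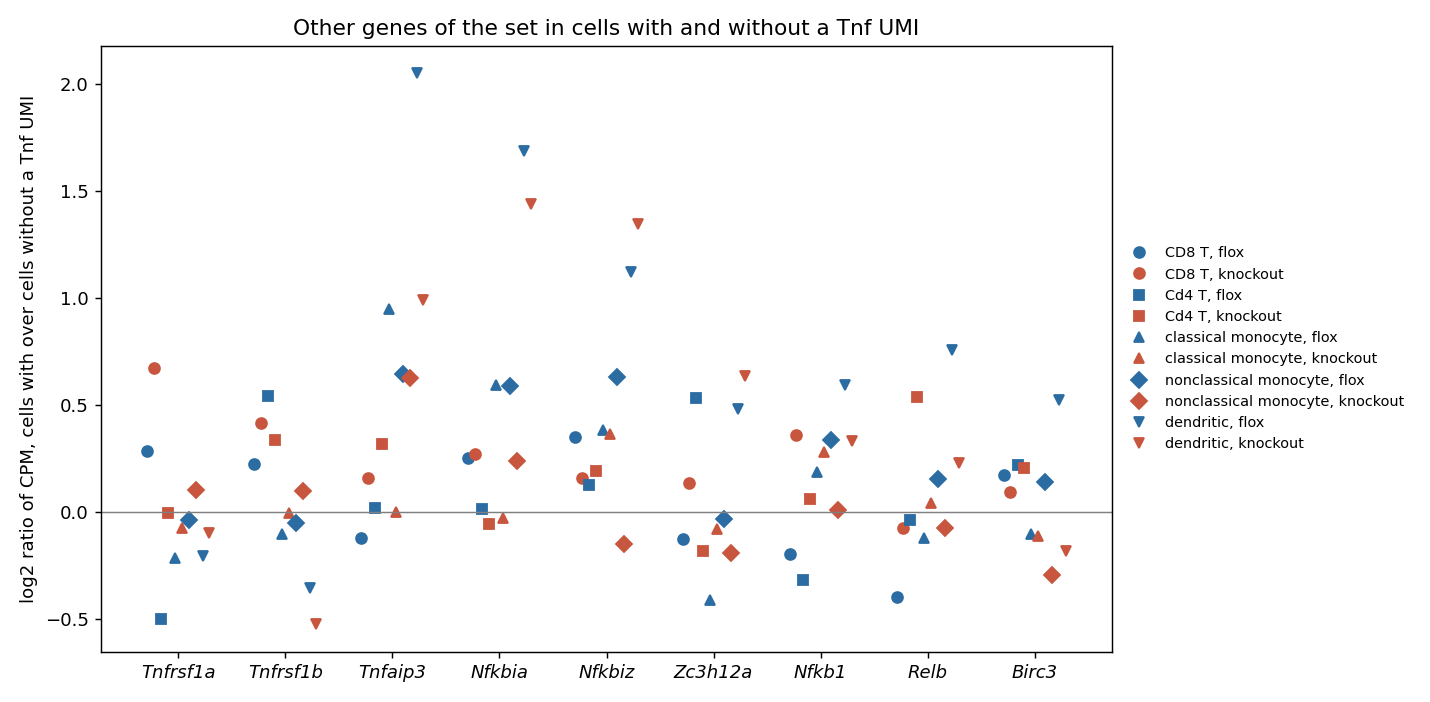
Log2 ratio of the level in cells with a Tnf UMI over that in cells without one (y axis) for the 9 other genes (x axis), 1 point per gate (marker shape) and library (blue flox, red knockout). The dendritic cell points of Tnfaip3, Nfkbia and Nfkbiz (ratios of 1.99 to 4.14) stand above all others, and the points of Tnfrsf1a, Relb and Birc3 scatter about 0.

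The wider pathway was read from 5 lists of 72 genes. Of 23 genes that carry or edit the receptor's signal, none was called higher in any gate. Those called lower were Traf1 in B cells (91.2 and 50.3 CPM, ratio 0.552), an adaptor that NF-kB induces, Tnip1 in classical monocytes (44.2 and 25.1 CPM, 0.569), a partner of A20, Rnf31 in Cd4 T cells (0.620), a subunit of the linear ubiquitin ligase, and Ikbkg in nonclassical monocytes (0.655), the scaffold of the IkB kinase. Of the 7 other subunits and IkB proteins, Bcl3 was lower in Cd4 T cells (38.7 and 22.0 CPM, 0.569) and Nfkb2 in NK cells (35.5 and 20.2 CPM, 0.570), and none was higher. Over the 7 gates this made 0 higher and 4 lower of 161 pairs of gene and gate in the list of signal carriers, and 0 higher and 2 lower of 49 pairs in that of subunits. All genes were called higher in 2.36% to 4.95% and lower in 3.15% to 5.67%, depending on the gate.

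Among 18 other inducible targets, of which 11 to 18 had enough UMIs in a gate, 0 to 4 were called higher and 1 to 4 lower per gate. Over the 7 gates 14 of 105 pairs (13.3%) were higher and 15 (14.3%) lower, above the share of all genes in each direction, with some genes counted in several gates. Cxcl2, a neutrophil-attracting chemokine, was lower in knockout in 5 gates. Its levels were 573 and 279.7 CPM in classical monocytes (0.488), 261 and 171 CPM in nonclassical monocytes (0.655), 129 and 49.7 CPM in dendritic cells (0.386), 40.1 and 6.17 CPM in Cd4 T cells (0.154) and 3.22 and 1.28 CPM in CD8 T cells (0.397). The call in CD8 T cells rests on 21 and 12 UMIs. In B and NK cells Cxcl2 was called higher, from 25 and 64 UMIs and from 1 and 33. Ccl4 was higher in B cells (23.7 and 54.0 CPM), CD8 T cells (395 and 714 CPM, 1.81) and Cd4 T cells (18.5 and 84.2 CPM, 4.55), and Ccl3 in B cells, NK cells (333 and 508 CPM) and classical monocytes (101 and 169.5 CPM). Cd40, a costimulatory receptor gene, was lower in classical monocytes (0.627) and dendritic cells (0.474), and the survival gene Bcl2a1b in the same gates (0.597 and 0.521). Its relative Bcl2a1d was lower in B cells (0.486) and NK cells (0.514); near-identical copies make the split of reads between these genes uncertain. Further genes called higher were Gadd45b (1.54) and the activation marker Cd83 (1.88) in CD8 T cells, Plaur in NK cells (2.35), the prostaglandin synthase gene Ptgs2 in classical monocytes (1.80) and the cytokine gene Il6 in dendritic cells (1.63). Ier3 was lower in CD8 T cells (0.574) and the cytokine gene Il1b in NK cells (0.580).

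Of 10 genes that supply TNF-family ligands or control the decay of their messages, Lta was the 1 called. It encodes lymphotoxin-alpha, a ligand of the same receptors and the genomic neighbour of Tnf, and stood at 4.14 and 10.1 CPM in CD8 T cells (2.44, 1.58 to 3.90) and at 6.86 and 19.0 CPM in Cd4 T cells (2.76, 1.59 to 4.96). Zfp36, which encodes tristetraprolin, the protein that destabilises Tnf message, was not called in any gate, with ratios of 1.22 in CD8 T and 1.02 in Cd4 T cells. Of 14 immediate early and digestion-induced genes, 3 were higher in Cd4 T cells (Jun 1.52, Atf3 2.09 and Hspa1a 1.79) and 3 in CD8 T cells (Btg2 1.54, Hspa1b 2.48 and Hspa1a 3.56), and Socs3 was lower in both (0.582 and 0.555). All genes were called higher in 3.99% of cases in Cd4 T and 4.95% in CD8 T cells. In NK cells Egr1 (1.52) and Hspa1a (3.20) were higher and Fosb (0.581) and Socs3 (0.515) lower, and Hspa1b was higher in B cells (4.88) and Hspa1a in dendritic cells (1.77). Over the 7 gates 12 of 98 pairs (12.2%) were higher and 4 (4.08%) lower. Hspa1a and Hspa1b, each counted in several gates, made up most of the higher pairs. The list's median log2 ratio was 0.24 in Cd4 T, 0.30 in CD8 T and 0.17 in nonclassical monocytes, where Hspa1a (2.02) and Hspa1b (2.07) were higher. Its part in the Tnf values was not tested.

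Genes with the level pattern most like that of a member were ranked over the same 14 profiles among 10874 genes, by Pearson correlation of log2(CPM + 10). Those nearest Tnf were Rcan3 (r = 0.97), Vipr1 (0.89), Galm (0.88), Igfbp4 (0.88) and Ramp3 (0.88). Nearest Tnfrsf1b were Pitpnm1 (0.98), B2m (0.95), Myo9b (0.94), Mbp (0.93) and Itgal (0.93). Nearest Tnfaip3 were Stk39 (0.98), Abca2 (0.98), Rgs1 (0.97), Gm20186 (0.97) and Cd226 (0.97), and nearest Nfkbia were Skil (0.89), Gm10634 (0.87), Ube2e2 (0.87), Fam110a (0.86) and Areg (0.84). Rcan3 stands clear of the next gene for Tnf, while the 5 nearest Tnfaip3 lie within a narrow range.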

How the data were processed

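RNA of sorted CD45+ cells was counted as UMIs per gene and barcode. Per the file headers, the deposited counts are whole numbers written by Cell Ranger version 4 for flox and 7.0.1 for knockout, and the build is mm10 per the submitters' processing notes. The flox matrix holds 1002803 barcodes (783281 with a UMI, 38623933 UMIs in all) and the knockout matrix 4096 called barcodes (35944330 UMIs). Barcodes with at least 1000 UMIs and under 10% mitochondrial UMIs were kept in both, doublets included. Counts were summed per gate and scaled to 1000000 UMIs, so a level says nothing of RNA per cell. Intervals are at 95%. Log2 ratios had 0.5 UMIs added. No test was possible with 1 library per group, and no p-value is given. The members and all gene lists were chosen with earlier results of these data known. From the lists, up to 3 called genes per list, direction and gate are named, by total UMIs. The 5 genes most like Tnf, Tnfrsf1b, Tnfaip3 and Nfkbia were taken from genes with at least 200 UMIs in gated cells. Subsets by Cxcr6 and the removal of the 5 highest cells were chosen after seeing the data, and the genes named beside Tnf-positive cells fall outside the naming rule. In counts simulated for each of the 7 gates, 94% (NK, 9636 genes) to 99.0% (classical monocyte, 10965 genes) of genes raised 3-fold and 92.8% (NK) to 99.0% (CD8 T, 12079 genes) of genes lowered 3-fold were called, with 1.10% (CD8 T) to 1.87% (Cd4 T, 10233 genes) of unchanged genes. These counts were Poisson draws of gate sums, without spread between cells. The called differences of the 10 genes were smaller than 3-fold, so the simulation does not show how reliable they are. The summed level of the pigment epithelium and photoreceptor markers is not reported here. Computations used Python 3.11.15, numpy 2.4.6, scipy 1.17.1, pandas 2.3.3 and scanpy 1.11.5.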

Additional observations from a re-analysis of the deposited data

Results flagged for a closer look

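The knockout over flox ratio of Tnf took opposite directions in different cells of the same libraries: it was 1.94 in CD8 T cells and 2.28 in Cd4 T cells but 0.651 in nonclassical monocytes. The difference between these gates was not tested. In B cells the ratio was 0.515 (0.284 to 0.914) in female cells, from 34 and 21 UMIs, and 5.32 (1.32 to 46.5) in male cells, from 2 and 24 UMIs. This difference between the sexes was not tested either, and its male value rests on very few UMIs.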

How the results depend on the processing

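The values were recomputed under 22 other settings, 3 of them chosen after seeing the data. Of 1170 recomputed values, 1042 stayed within the bounds of the reported value, 125 moved and 3 were counted as changed in direction. A change of direction was counted only where the reported difference had been called. Uncalled ratios that crossed 1 are among the others, such as Tnf in B cells (0.747, but 5.32 in male cells). The 3 counted were Tnf in Cd4 T cells without Cxcr6 (0.964), Tnf in male nonclassical monocytes (1.59) and Tnfrsf1a in Cd4 T cells thinned to 1000 UMIs (0.681, from 9 and 5 UMIs). The cause was not tested. The count of 3 members called higher became 5 in male cells and 1 without Cd4 T cells holding Cxcr6. The count of 1 called lower became 4 without Scrublet doublets, 3 without cells of several gates, 2 with gate thresholds raised by 1, 0 by the mean CPM of cells, 5 in female cells, 2 in male cells, 2 without B cells holding Lgals1 or Ahnak, 2 without Cd4 T cells holding Cxcr6 and 2 without the 5 highest cells. With cells thinned to 1000 UMIs both counts stayed the same, but the calls themselves changed. Those of Tnf in Cd4 T cells and nonclassical monocytes and of Tnfrsf1a in Cd4 T cells were lost. Zc3h12a was then called higher in CD8 T cells (1.82) and classical monocytes (1.93), and Tnfaip3 lower in B cells (0.531). The ratio of Tnf over all kept cells, 1.34, became 1.51 by the mean CPM of cells, 0.932 in female cells and 1.91 in male cells. The Tnf ratio of CD8 T cells ranged from 1.09 to 2.06 over 18 settings, that of Cd4 T cells from 0.964 to 4.36, and that of nonclassical monocytes from 0.579 to 1.59 over 16. Subtraction of the free RNA profile gave no value over all kept cells. No paired analysis was possible because each group has 1 library, and for the same reason no library could be left out. Depth limits Tnf in NK and B cells (8 to 51 UMIs) and Tnfrsf1a in lymphocytes.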
